A study of Mus musculus with 18 samples.

Results

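The T-box genes Tbx1, Tbx2, Tbx3, Tbx4, Tbx5, Tbx15, Tbx18 and Tbx20 were followed across mouse heart and lung cells by bulk RNA-seq of mRNA. They were chosen by name, with earlier results of these data known, and matched by gene symbol. They are 8 of the 35727 gene IDs in the count table. The 18 libraries form 6 groups of 3: fibroblasts, iECs and native endothelial cells (ECs) of the heart, and the same 3 cell types of the lung. iECs are the cells that the study examined for the acquisition of an organ-specific endothelial identity, and their titles carry the letters SEG, which no label explains. Fibroblasts are titled as controls, all 18 libraries are from day 7, and all cells were kept in EGM2, an endothelial growth medium. The labels give no strain, genotype, sex or age of the mice, do not say how iECs were made or how ECs were isolated, and do not say whether replicates came from separate animals or cultures. The p-values therefore measure only the spread between these libraries, which may be technical.

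T-box proteins are transcription factors that share a DNA-binding domain, the T-box, and bind sites containing the letters GGTGTG. Tbx5 and Tbx20 act with Gata4 and Nkx2-5 in heart development, while Tbx2 and Tbx3 act mainly as repressors and keep parts of the developing heart, such as the atrioventricular canal and the pacemaker tissue, from becoming working muscle. Tbx18 marks the epicardium and the sinus horn, and later pericytes. Tbx4 and Tbx5 are expressed in the mesenchyme of the lung bud, where they act upstream of Fgf10, and Tbx2 and Tbx3 are also expressed in lung mesenchyme. Tbx1 works in the pharyngeal region and in lymphatic endothelium, where it acts upstream of the receptor gene Flt4, and Tbx15 is known for roles in skeleton and skin.

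The promoters of Tbx20 and Tbx4 are shown because these genes held the largest level per kilobase in the heart and in the lung groups. Windows were at hand for 4 of the 8 genes (Tbx1, Tbx4, Tbx18 and Tbx20), and each is the 250 bases before a RefSeq start on GRCm38.p6. The Tbx20 window is chr9:24774304-24774553 on the minus strand and ends where the gene model begins. The Tbx4 window is chr11:85896515-85896764 on the plus strand and lies before a start 10.34 kb inside the annotated gene. Both are written 5′ to 3′ on the gene's strand, with capitals for a GC box (GGGCGG or its reverse complement) and, in Tbx4, also for TATA-like letters (TATAA on both strands, overlapping).
Tbx20: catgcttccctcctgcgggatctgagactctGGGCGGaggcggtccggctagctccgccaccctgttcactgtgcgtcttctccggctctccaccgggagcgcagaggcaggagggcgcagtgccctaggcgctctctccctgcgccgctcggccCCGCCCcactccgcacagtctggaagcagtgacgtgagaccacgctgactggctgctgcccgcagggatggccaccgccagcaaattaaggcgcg
Tbx4: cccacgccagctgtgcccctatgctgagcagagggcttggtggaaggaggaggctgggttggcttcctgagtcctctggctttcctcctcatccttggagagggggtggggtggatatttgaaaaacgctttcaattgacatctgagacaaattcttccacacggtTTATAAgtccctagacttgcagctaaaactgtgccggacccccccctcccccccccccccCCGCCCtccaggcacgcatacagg
The Tbx20 window held 68.8% G and C and had GC boxes at -219 and -95, counted from the start. The Tbx4 window held 58.4% G and C and had TATA-like letters at -84 and -83 and a GC box at -24. Over all 32851 windows of this length, the median G and C content was 52.4%, 32.7% held a GC box and 22.8% held TATA-like letters. The letters of a T-box site (GGTGTG), an ETS site (CCGGAA), a SOX site (ACAAT) and a GATA site (AGATAA) were searched on both strands. None stood in any window of these 4 genes, against 16.3%, 12%, 27.7% and 9.99% of all windows.

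Library totals ran from 17747632 to 23775372 counts, and log2 levels of replicates correlated across genes at r of 0.9754 to 0.9894. The fit covered 14864 genes. All 8 T-box genes passed its filter on low counts, Tbx1 only through the EC groups. Levels are CPM, the counts of a gene relative to the TMM-scaled library total. The summed CPM of 10 endothelial markers was 2199.2 to 2352.6 in heart iECs, 1761 to 1939.7 in heart ECs, 1971.5 to 2297.5 in lung iECs and 2789 to 2871.7 in lung ECs. The same sum was 255.6 to 282.6 in heart fibroblasts and 19.1 to 25.5 in lung fibroblasts. Erg, an ETS factor of endothelial cells, carried much of the iEC sums, at 1024.3 CPM in heart iECs and 1033.8 in lung iECs against 51.5 and 85.5 in the ECs. Without Erg, a sum computed after these values were seen, the other 9 markers gave 1227.4 to 1289.3 in heart iECs and 1716 to 1883.2 in heart ECs, and 1012.6 to 1110.6 in lung iECs and 2708.8 to 2783.6 in lung ECs. The summed CPM of 10 fibroblast markers was still 20739.3 to 21740.2 in heart ECs and 5881 to 7089.3 in lung ECs, against 30365.6 to 31684.6 and 35246.4 to 43036.6 in the fibroblasts of these organs. Macrophage markers summed to 8154.9 to 10401.1 CPM in lung ECs and to at most 428.4 in any heart library. In bulk libraries such as these, fewer cells of a type and less RNA per cell cannot be told apart.

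The members of the family that were abundant differed between the organs. Levels of different genes were set side by side as CPM per kilobase of the longest protein-coding transcript. In heart fibroblasts Tbx20 read 125.8 ± 8.92 CPM per kb (SD, n = 3), or 91% ± 0.249 of the sum of the 8 genes. Its share was 79% ± 0.309 in heart iECs and 84.8% ± 0.939 in heart ECs. Tbx18 was the second in all 3 heart groups, with 7.85 CPM per kb in fibroblasts, 8.18 in iECs and 6.01 in ECs. In the lung Tbx4 came first, at 21.9 ± 1.34 CPM per kb in fibroblasts (43.6% ± 0.157 of the sum) and 16.2 ± 1.55 in iECs (42.1% ± 1.42). Tbx2 was the second in both, with 13 and 8.2 CPM per kb. Lung ECs had a flatter order: Tbx4 at 6.45 ± 0.457 CPM per kb and Tbx1 at 5.85 ± 0.657 overlapped, followed by Tbx3 at 4.18 and Tbx2 at 2.81. Tbx20 was the lowest of the 8 in lung ECs, at 0.499 CPM per kb. The sum over the 8 genes was 138.2 ± 9.6 CPM per kb in heart fibroblasts, 67.1 ± 1.09 in heart iECs and 83.1 ± 10 in heart ECs. It was 50.2 ± 2.97, 38.5 ± 2.45 and 24 ± 1.51 in the lung groups in the same order of cell types.

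**Figure D1:**
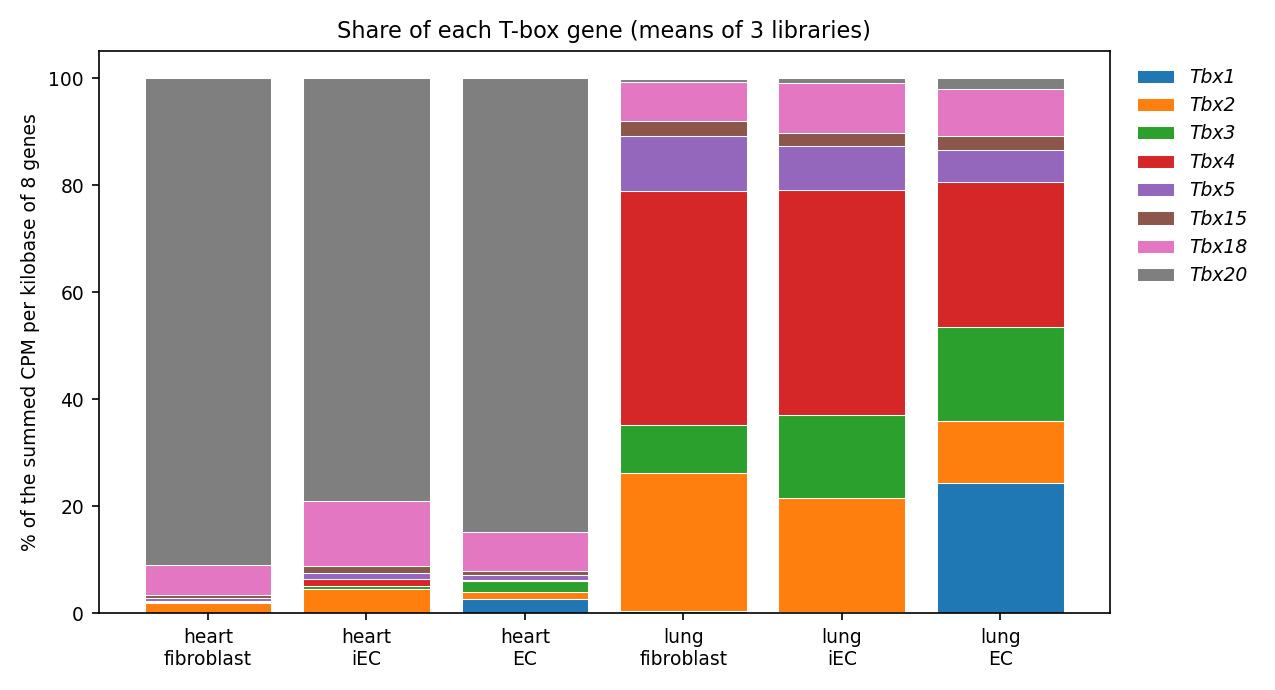
Share of each T-box gene in the summed CPM per kilobase of the 8 genes (%, vertical axis) in the 6 groups, as stacked means of 3 libraries. Tbx20 takes 79% to 91% of the heart columns, while Tbx4 and Tbx2 take most of the lung fibroblast and lung iEC columns, and Tbx1 takes 24.3% of the lung EC column.

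Tbx20, a partner of Gata4 and Nkx2-5 in the heart, was high in all 3 heart groups and low in all 3 lung groups. Its CPM in the 3 libraries was 1215.4, 1158.8 and 1055.6 in heart fibroblasts, 473.8, 483.5 and 487.4 in heart iECs, and 546.4, 705.8 and 671.2 in heart ECs. In lung fibroblasts it was 2.63, 3.26 and 2.75, in lung iECs 3.56, 2.96 and 3.47, and in lung ECs 4.43, 3.63 and 5.54. Every heart library lay above every lung library, and the order from the top was heart fibroblasts, heart ECs, heart iECs, lung ECs, lung iECs and lung fibroblasts, of which only the last pair overlapped. The gene lies on chromosome 9 at 24718138 to 24774303 of GRCm38. The summed CPM of 12 cardiomyocyte markers was 84.7 to 95.5 in heart fibroblasts, of which Tnnt2 made 87.3 on average, with Actn2 and Myl2 at 0. It was 64.7 to 79.6 in heart ECs, where Tnnt2 made 37.9 and Nppa 26.3 on average and Myh7 was at 0. In heart iECs that sum was 8.72 to 10.2, with Myh7, Actc1 and Myl2 at 0. The part of these markers in the level of Tbx20 was not tested.

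Tbx18, the epicardial and pericyte factor on chromosome 9 at 87702800 to 87731260, was the other gene with its higher levels in the heart. Its CPM was 37.2, 38.8 and 34.2 in heart fibroblasts, 35.9, 38.0 and 41 in heart iECs, and 28.0, 28.2 and 28.2 in heart ECs. Lung fibroblasts had 14.9, 18.1 and 19.0, lung iECs 16.6, 18 and 15.9, and lung ECs 7.69, 9.38 and 12.8. No lung library reached the lowest heart library. Heart iECs and heart fibroblasts overlapped, as did lung fibroblasts and lung iECs, and ECs were the lowest group within each organ. The summed CPM of 10 mural cell markers was 1042.5 to 1085.7, 966.3 to 977.4 and 626.2 to 686.7 in heart fibroblasts, iECs and ECs, and 537.7 to 693.3, 426.8 to 606.3 and 340.1 to 441.7 in those of the lung, so that lung fibroblasts and heart ECs overlapped. Pdgfrb made 930 of the heart fibroblast sum, and fibroblasts were the lowest group of each organ without it, a sum computed after these values were seen. The other 9 markers gave 122.3 to 140.6, 527.2 to 557 and 272.6 to 302.9 in heart fibroblasts, iECs and ECs. In those of the lung they gave 75 to 84.4, 269.5 to 382.8 and 241.9 to 313.2. Single markers differed in direction: between lung and heart fibroblasts, 3 of 9 tested were higher, among them Myh11 (36 against 2.22 CPM), and 4 were lower. Of all genes tested, 48.5% were called in that comparison (24.6% higher, 23.9% lower). The part of mural cell markers in the Tbx18 difference was not tested. Epicardial and mesothelial markers summed to 81.3 to 101 CPM in heart fibroblasts, 114.7 to 126.5 in heart iECs and 479.4 to 698.9 in heart ECs. In the lung they summed to 386.5 to 403.7 in fibroblasts, 66.5 to 89.8 in iECs and 271.6 to 404 in ECs. The part of these markers in the level of Tbx18 was not tested either. An annotated gene on the opposite strand, D030062O11Rik, overlaps Tbx18 and was not counted separately. How strand was handled is not given, so reads of both strands cannot be told apart.

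**Figure D2:**
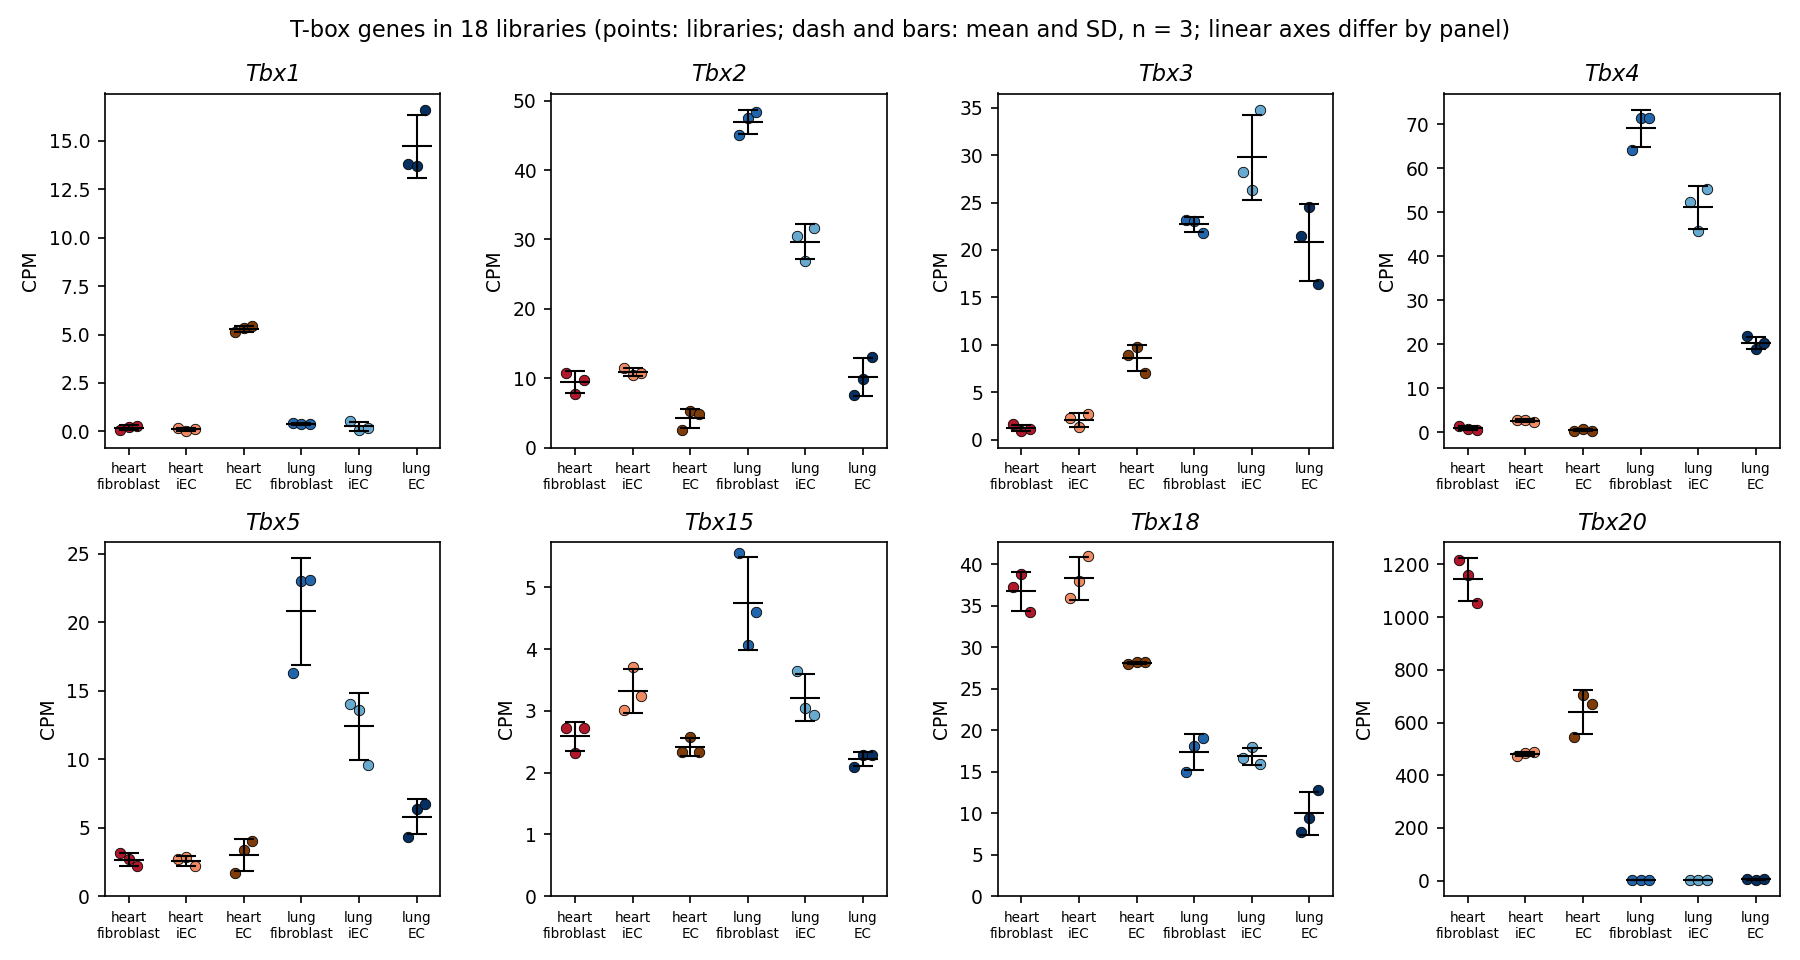
Level of each T-box gene (CPM, linear axis from 0, a different scale in each panel) in the 18 libraries by group, with points for libraries and a bar and whisker for the mean and SD of 3. Tbx20 and Tbx18 are high in the 3 heart groups, Tbx2, Tbx3, Tbx4 and Tbx5 in the lung groups, and Tbx1 in the 2 EC groups.

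Tbx4, a factor of lung bud mesenchyme and hindlimb, was high where Tbx20 was low. Its CPM was 64.1, 71.5 and 71.5 in lung fibroblasts, 52.4, 45.8 and 55.3 in lung iECs, and 21.8, 18.9 and 20.3 in lung ECs. Heart iECs had 2.93, 2.75 and 2.46, heart fibroblasts 1.46, 0.737 and 0.666, and heart ECs 0.359, 0.824 and 0.333. The lung groups did not overlap each other, and in the heart only fibroblasts and ECs did. Tbx5, its partner in the lung bud and a factor of forelimb and heart, had 16.3, 23.0 and 23.1 CPM in lung fibroblasts, 14, 13.6 and 9.6 in lung iECs, and 4.33, 6.36 and 6.71 in lung ECs. In the heart it had 3.13, 2.69 and 2.18 in fibroblasts, 2.71, 2.88 and 2.16 in iECs, and 1.7, 3.35 and 4.0 in ECs. All 3 heart groups overlapped for Tbx5, and every one of their libraries lay below the lowest lung library.

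The repressor genes Tbx2 and Tbx3 were also higher in the lung, with different orders of the cell types. Tbx2 had 45.0, 47.5 and 48.4 CPM in lung fibroblasts, 30.5, 26.9 and 31.7 in lung iECs, and 7.64, 9.87 and 13.0 in lung ECs. Heart fibroblasts had 10.8, 7.69 and 9.74, heart iECs 11.5, 10.4 and 10.7, and heart ECs 2.6, 5.22 and 4.83. Lung ECs thus overlapped heart iECs and heart fibroblasts. For Tbx3 the libraries had 23.2, 23.1 and 21.8 CPM in lung fibroblasts, 28.2, 26.3 and 34.8 in lung iECs, and 21.5, 24.5 and 16.4 in lung ECs. Its heart values were 1.62, 0.948 and 1.09 in fibroblasts, 2.31, 1.29 and 2.68 in iECs, and 8.92, 9.72 and 7.05 in ECs. The order for Tbx3 was lung iECs, lung fibroblasts, lung ECs, heart ECs, heart iECs and heart fibroblasts, with overlap between lung fibroblasts and lung ECs and between heart iECs and heart fibroblasts. Tbx3 is overlapped by the antisense gene Tbx3os1, which was not counted separately.

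These 4 genes sit in 2 neighbouring pairs. Tbx2 (85832551 to 85841948) and Tbx4 (85886422 to 85916097) lie 44.5 kb apart on chromosome 11, and Tbx3 (119670669 to 119684724) and Tbx5 (119832668 to 119885219) lie 147.9 kb apart on chromosome 5, each pair on the same strand. Over the 18 libraries, Pearson's r of log2 CPM was 0.87 for Tbx2 with Tbx4 and 0.76 for Tbx3 with Tbx5. Genes of different pairs reached like values, at 0.88 for Tbx2 with Tbx5 and 0.89 for Tbx4 with Tbx5. These values are descriptions, since libraries of a group share their source. Of the genes beside the Tbx2 and Tbx4 pair, Bcas3 had mean CPM of 35.2, 40.8 and 23.7 in heart fibroblasts, iECs and ECs and 25.1, 28.5 and 21.7 in those of the lung. Brip1, on the other side, had 1.68, 3.61 and 6.66 in the heart and 4.76, 7.02 and 7.25 in the lung.

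Tbx1, the pharyngeal and lymphatic factor on chromosome 16 at 18580979 to 18590671, was an EC gene in both organs. Its CPM was 13.8, 13.7 and 16.6 in lung ECs and 5.11, 5.33 and 5.44 in heart ECs. Heart fibroblasts had 0.0522, 0.211 and 0.303, lung fibroblasts 0.458, 0.383 and 0.361, heart iECs 0.178, 0 and 0.13, and lung iECs 0.522, 0.0859 and 0.193. Each of these 12 libraries held at most 11 Tbx1 counts, and heart iEC replicate 2 held 0, whereas lung ECs held 283 to 398. The iEC libraries were thus at the level of the fibroblasts for Tbx1. Their endothelial markers without Erg summed to 1012.6 CPM or more, against at most 275.3 in the fibroblasts, but single markers differed. Cldn5 averaged 0.977 CPM in heart iECs, against 3.27 in heart fibroblasts and 27.7 in heart ECs. In the lung it averaged 0.416 in iECs, 0.452 in fibroblasts and 54.8 in ECs. Cdh5 went the other way, at 555.1 and 465.1 in heart and lung iECs against 75.5 and 3.17 in the fibroblasts. The 7 lymphatic endothelial markers summed to 904 to 1026.2 CPM in heart ECs and 1722.3 to 1739 in lung ECs, against 236.9 to 246.3 in heart iECs, 215.8 to 293.1 in lung iECs, 302.1 to 338.8 in heart fibroblasts and 330.7 to 367.7 in lung fibroblasts. Outside the ECs most of these sums was Pdpn. It averaged 150.5 and 130.2 CPM in heart and lung iECs, 219.1 and 316.7 in the fibroblasts, and 345 and 276.6 in the ECs. The 8 epithelial markers summed to 251 to 290.6 CPM in lung ECs, 12 to 22.8 in heart ECs and at most 19.9 elsewhere, with Epcam, Cldn4, Sftpc, Nkx2-1 and Scgb1a1 at 0 in heart ECs. The part of either marker group in the level of Tbx1 was not tested.

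**Figure D3:**
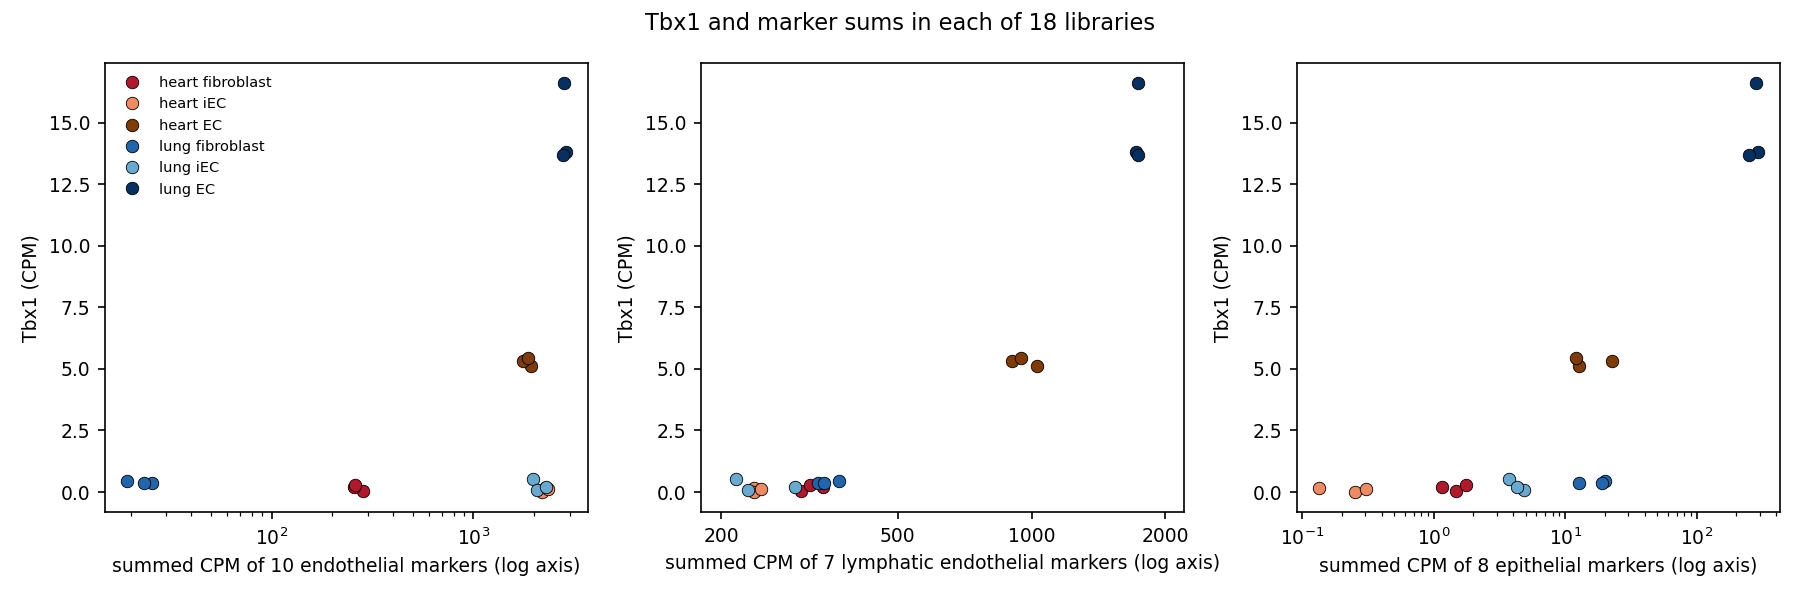
Tbx1 level (CPM, vertical axis) against the summed CPM (log axis) of endothelial, lymphatic endothelial and epithelial markers, 1 point per library. The iEC libraries have endothelial sums of 1971.5 to 2352.6, of which Erg makes 1024.3 and 1033.8 on average in heart and lung, with Tbx1 at or near 0, and the EC libraries are apart from all others in the lymphatic panel.

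Tbx15, on chromosome 3 at 99240381 to 99354259, varied least. Its CPM was 5.56, 4.07 and 4.6 in lung fibroblasts, 3.65, 3.05 and 2.94 in lung iECs, and 2.09, 2.28 and 2.29 in lung ECs. Heart fibroblasts had 2.72, 2.32 and 2.72, heart iECs 3.02, 3.71 and 3.24, and heart ECs 2.33, 2.58 and 2.33. Lung fibroblasts stood above all other groups and lung ECs below them, and the groups between overlapped in pairs. The antisense gene Gm43120 overlaps Tbx15 and was not counted separately.

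Lung and heart fibroblasts were compared first. Tbx4, Tbx3, Tbx5, Tbx2 and Tbx15 were higher in lung fibroblasts, and Tbx20 and Tbx18 were higher in heart fibroblasts. By the quasi-likelihood test of edgeR (adjusted p under 0.05) 7 of 8 were called, where 48.5% of all genes tested were (24.6% higher, 23.9% lower). Tbx20 was 395-fold lower in lung fibroblasts (log2 -8.63 ± 0.162 SE, adjusted p = 6.78e-17), and Tbx18 was 2.12-fold lower (-1.08 ± 0.133, 2.07e-06). Tbx4 was 71-fold higher (6.15 ± 0.201, 5.87e-14), Tbx3 18.5-fold (4.21 ± 0.246, 1.74e-10) and Tbx5 7.76-fold (2.96 ± 0.264, 4.39e-08). Tbx2 was 4.99-fold higher (2.32 ± 0.195, 2.61e-08) and Tbx15 1.83-fold (0.87 ± 0.182, 0.00061). Tbx1, at 1 to 8 counts a library, gave 1.09 ± 0.609 and was not called (adjusted p = 0.152). The median log2 difference was 1.71 over the 8 genes and 0.01 over all genes tested.

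In iECs, 6 of the 8 genes differed between the organs, each in the direction found in fibroblasts. Lung iECs had more Tbx4 (18.8-fold, log2 4.23 ± 0.17, adjusted p = 1.36e-12), Tbx3 (14.2-fold, 3.83 ± 0.223, 2.35e-10), Tbx5 (4.79-fold, 2.26 ± 0.259, 1.58e-06) and Tbx2 (2.73-fold, 1.45 ± 0.189, 8.55e-06) than heart iECs. Tbx20 was 145-fold lower in lung iECs (-7.18 ± 0.153, 6.2e-16) and Tbx18 2.27-fold lower (-1.18 ± 0.132, 1.03e-06). Of all genes tested, 37.7% were called in this comparison (18.9% in each direction). Tbx15 differed by -0.05 ± 0.178 (adjusted p = 0.861). Tbx1 gave 1.33 ± 0.69 (0.142) and passed the threshold without lung iEC replicate 2 (1.94, 0.0456), on at most 11 counts a library. The median over the 8 genes was 1.39, against -0.02 over all genes.

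Between native ECs, 7 of the 8 genes were called, where 47.9% of all genes tested were (24.2% higher, 23.7% lower). Lung ECs were higher in Tbx4 (40.4-fold, log2 5.34 ± 0.224, adjusted p = 1.04e-12), Tbx1 (2.77-fold, 1.47 ± 0.294, 0.000436), Tbx2 (2.45-fold, 1.29 ± 0.213, 7.33e-05), Tbx3 (2.43-fold, 1.28 ± 0.194, 2.65e-05) and Tbx5 (1.95-fold, 0.96 ± 0.264, 0.00572). They were lower in Tbx20 (141-fold, -7.14 ± 0.151, 2.57e-16) and Tbx18 (2.81-fold, -1.49 ± 0.137, 5.08e-08). The values of Tbx15 did not overlap, yet its difference of -0.12 ± 0.187 was not called (0.637). The median was 1.12 over the 8 genes and 0.02 over all genes. In the 3 organ comparisons, Tbx2, Tbx3, Tbx4 and Tbx5 were called higher in the lung each time and Tbx18 and Tbx20 lower each time. The share of all genes called in the same direction each time is not given here.

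**Figure D4:**
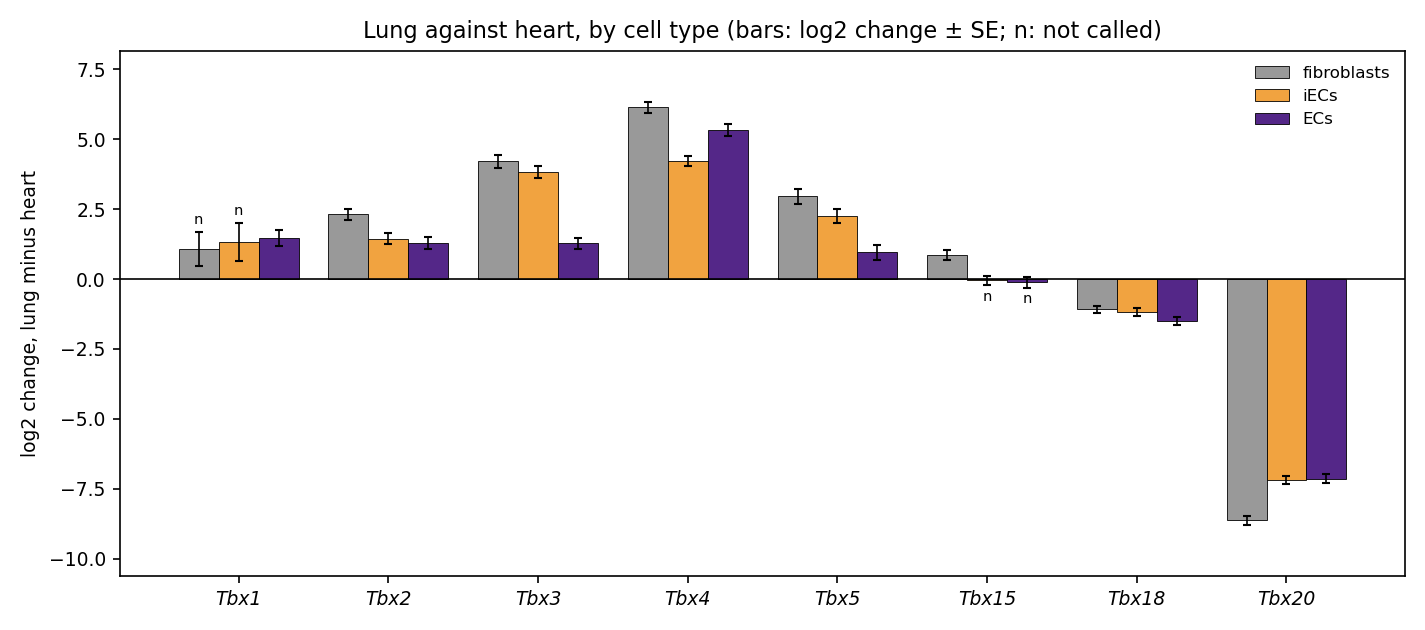
Log2 difference lung minus heart (bars, with SE) of the 8 genes in fibroblasts, iECs and ECs, 3 libraries a group; n marks a difference that was not called at an adjusted p of 0.05. Tbx20 lies between -8.63 and -7.14 and Tbx4 between 4.23 and 6.15 in all 3 cell types.

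By a test of the difference of differences in edgeR's fit, the organ difference of 6 genes changed in some comparison of cell types. The share of all genes that did so in any of them is not given here. From fibroblasts to iECs, the organ difference of Tbx4 was smaller by 1.92 log2 units (-1.92 ± 0.277, adjusted p = 4.68e-05), that of Tbx15 by 0.92 (-0.92 ± 0.255, 0.0121) and that of Tbx2 by 0.87 (-0.87 ± 0.267, 0.0229). That of Tbx20 was less negative by 1.45 (1.45 ± 0.194, 2.1e-05). These 4 of 8 stand beside 25.2% of all genes tested (12.6% in each direction). Tbx2 missed the threshold without heart fibroblast replicate 2, heart iEC replicate 1 or lung iEC replicate 2, with adjusted p of 0.0515 to 0.069. From fibroblasts to ECs, 5 of 8 changed (34.5% of all genes, 16.2% higher and 18.3% lower): Tbx3 (-2.93 ± 0.317, 1.04e-06), Tbx5 (-1.99 ± 0.372, 0.00038), Tbx2 (-1.03 ± 0.288, 0.00975), Tbx15 (-0.99 ± 0.261, 0.00626) and Tbx20 (1.48 ± 0.189, 6.13e-06). Tbx4 gave -0.81 ± 0.383 in that test (0.113), and -1.27 with an adjusted p of 0.0124 without heart fibroblast replicate 1. Tbx18 gave -0.41 ± 0.189 (0.105) and was called without lung fibroblast replicate 1 or lung EC replicate 3, at adjusted p of 0.00339 to 0.0433.

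Between iECs and ECs, the organ difference of 3 of 8 genes differed, against 26.0% of all genes tested (13.8% higher, 12.2% lower). Tbx3 had a larger lung excess in iECs (by 2.55 ± 0.292, adjusted p = 3.62e-06), as did Tbx5 (1.3 ± 0.369, 0.0145), and Tbx4 had a smaller one (-1.1 ± 0.319, 0.0158). Tbx20 differed by -0.03 ± 0.182 (0.92) and Tbx2 by 0.16 ± 0.286 (0.741). Without heart EC replicate 3, 1 of the 8 was called: Tbx5 gave 1.04 (0.0581) and Tbx4 -0.9 (0.0713), and without heart EC replicate 1 Tbx4 again missed (0.0863). Tbx18 gave 0.31 ± 0.188 (0.248) and was called without lung EC replicate 3 (0.53, 0.0149). All these comparisons share libraries with the organ comparisons above.

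Against heart fibroblasts, heart iECs had 2.37-fold less Tbx20 (log2 -1.25 ± 0.113, adjusted p = 3.42e-08) and 2.8-fold more Tbx4 (1.48 ± 0.241, 4.74e-05), from 0.955 to 2.71 CPM on average. Tbx3 was 1.7-fold higher (0.77 ± 0.287, 0.0332), with overlapping libraries. Its call was lost without heart fibroblast replicate 2 or 3 or heart iEC replicate 1 or 3 (adjusted p of 0.0948 to 0.161, log2 difference of 0.55 at the lowest over all 18 left-out libraries). These 3 of 8 compare with 50.7% of all genes tested (26.0% higher, 24.6% lower). Tbx18 differed by 0.06 ± 0.128 (0.729), Tbx5 by -0.05 ± 0.284 (0.898), Tbx2 by 0.21 ± 0.198 (0.398), Tbx15 by 0.36 ± 0.183 (0.108) and Tbx1 by -0.83 ± 0.766 (0.39).

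Lung iECs had less of 4 genes than lung fibroblasts and more of none, where 50.6% of all genes tested were called (25.9% higher, 24.7% lower). Tbx2 was 1.58-fold lower (log2 -0.66 ± 0.18, adjusted p = 0.00526), Tbx5 1.68-fold (-0.75 ± 0.231, 0.0118), Tbx15 1.47-fold (-0.56 ± 0.177, 0.0135) and Tbx4 1.35-fold (-0.43 ± 0.136, 0.0126). Tbx3 lay higher in every lung iEC library and was not called (0.39 ± 0.183, 0.0864). It passed without heart iEC replicate 2 (0.0496) and in a fit on the 2 groups alone (0.0341). Without lung iEC replicate 3, 2 of the 8 were called, as Tbx5 (0.0595) and Tbx15 (0.0528) were lost. Tbx15 was also lost without lung fibroblast replicate 1 (0.0688), with no filter on low counts (0.0523) and on the 2 groups alone (0.0568), and Tbx4 without lung iEC replicate 2 (0.0597).

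Native ECs were then set against the fibroblasts of their organ. Tbx1 passed the filter only through the ECs, so it had to differ there, and its values against fibroblasts and iECs are given as a description, without a p. In heart ECs Tbx1 was 27.9-fold higher (log2 4.8 ± 0.453), and Tbx3 was 6.98-fold higher (2.8 ± 0.254, adjusted p = 7.87e-08). Tbx2 was 2.26-fold lower (-1.17 ± 0.217, 0.000263), Tbx20 1.78-fold (-0.83 ± 0.112, 7.77e-06), Tbx18 1.31-fold (-0.39 ± 0.13, 0.0206) and Tbx4 1.94-fold (-0.95 ± 0.337, 0.027). With Tbx1 left aside, every gene except Tbx5 and Tbx15 was called, where 47.4% of all genes tested were (24.2% higher, 23.3% lower). The Tbx18 call was lost without heart fibroblast replicate 1 or 2 or heart EC replicate 1 or 3 (0.0532 to 0.074). The Tbx4 call, at 1.46 CPM or less in every library, was lost without heart fibroblast replicate 1 or heart EC replicate 1 or 3 (0.107 to 0.31) and on the 2 groups alone (0.122).

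In lung ECs, with Tbx1 left aside, every gene except Tbx3 was called against lung fibroblasts. Of all genes tested, 58.1% were called (29.3% higher, 28.7% lower). Tbx1 was 36.4-fold higher (log2 5.19 ± 0.389), and Tbx20 was 1.57-fold higher (0.65 ± 0.152, adjusted p = 0.00132), at 2.63 to 5.54 CPM. Tbx2 was 4.6-fold lower (-2.2 ± 0.192, 2.35e-08), Tbx5 3.57-fold (-1.84 ± 0.241, 3.53e-06), Tbx4 3.4-fold (-1.76 ± 0.141, 5.29e-09), Tbx15 2.13-fold (-1.09 ± 0.181, 4.87e-05) and Tbx18 1.74-fold (-0.8 ± 0.138, 7.49e-05). Tbx3 differed by -0.12 ± 0.184 (0.59).

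**Figure D5:**
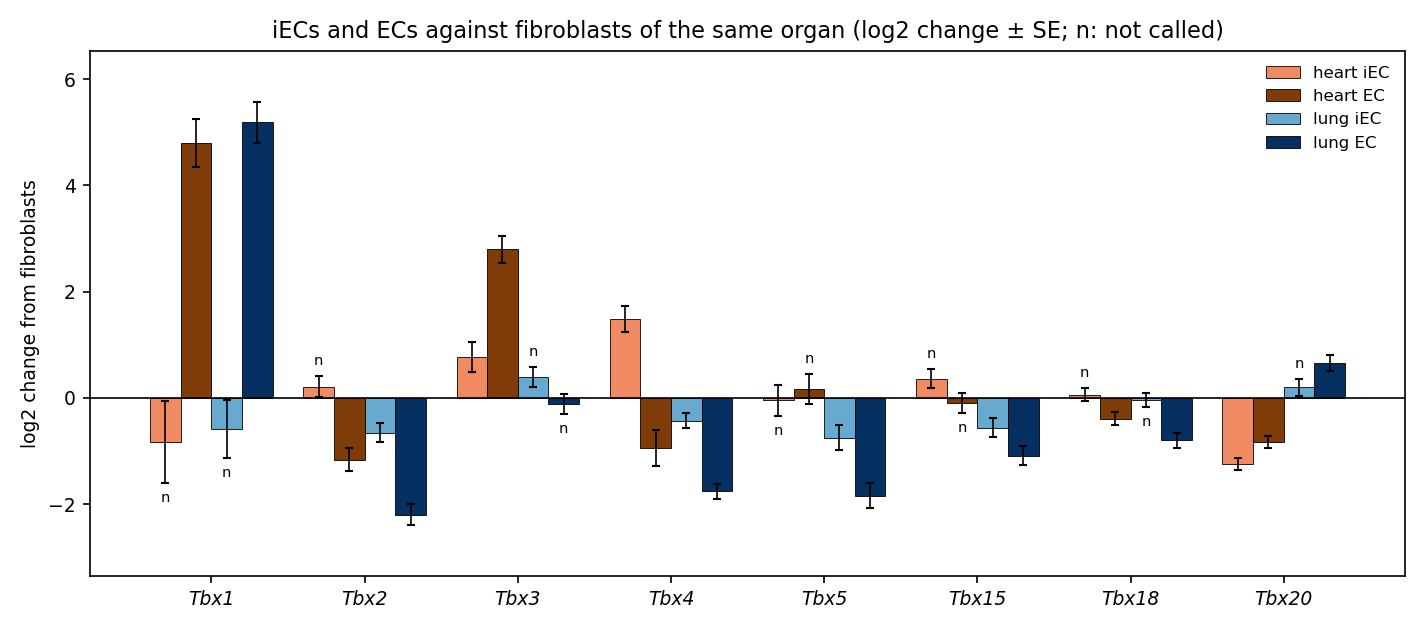
Log2 difference of iECs and of ECs from fibroblasts of the same organ (bars, with SE) for the 8 genes, 3 libraries a group; n marks a difference that was not called at an adjusted p of 0.05. Tbx1 reaches 4.8 and 5.19 in heart and lung ECs, while in iECs it was not called in either organ.

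Set directly against native ECs, iECs of both organs had far less Tbx1 and more Tbx2, Tbx4, Tbx15 and Tbx18. Heart iECs were 49.7-fold lower in Tbx1 (log2 -5.63 ± 0.474), with 7 counts in the 3 libraries, and lung iECs 54.7-fold lower (-5.77 ± 0.408). In the heart, iECs were also lower in Tbx3 (4.1-fold, -2.04 ± 0.227, adjusted p = 7.47e-07) and Tbx20 (1.33-fold, -0.41 ± 0.111, 0.00483), and higher in Tbx4 (5.41-fold, 2.44 ± 0.272, 6.73e-07), Tbx2 (2.61-fold, 1.38 ± 0.213, 3.43e-05), Tbx18 (1.36-fold, 0.45 ± 0.129, 0.00794) and Tbx15 (1.38-fold, 0.46 ± 0.183, 0.0448). With Tbx1 left aside, every gene except Tbx5 was called, where 48.9% of all genes tested were (24.5% higher, 24.4% lower). The Tbx15 call was lost in 10 of 18 fits without a library (0.0502 to 0.156), among them those without heart iEC replicate 2 or 3 or any 1 heart EC library, and under RLE scaling (0.0515), DESeq2 (0.0806), the 2 groups alone (0.0824) and no filter (0.111).

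Between lung iECs and lung ECs, with Tbx1 left aside, every gene was called, where 45.2% of all genes tested were (22.2% higher, 23.0% lower). Apart from Tbx1, lung iECs were lower in Tbx20 (1.36-fold, log2 -0.45 ± 0.148, adjusted p = 0.02). They were higher in Tbx2 (2.91-fold, 1.54 ± 0.19, 3.57e-06), Tbx4 (2.52-fold, 1.33 ± 0.141, 4.1e-07), Tbx5 (2.13-fold, 1.09 ± 0.241, 0.00121), Tbx18 (1.69-fold, 0.75 ± 0.138, 0.000199), Tbx15 (1.44-fold, 0.53 ± 0.183, 0.0246) and Tbx3 (1.43-fold, 0.51 ± 0.183, 0.0293). Tbx3 was lost without lung iEC replicate 3 or lung EC replicate 1 or 3 (0.0607 to 0.126), Tbx15 without lung iEC replicate 1 or lung EC replicate 1 or 2 (0.051 to 0.108), with no filter (0.0659) and on the 2 groups alone (0.0708). Tbx20 was lost without lung iEC replicate 2 or lung EC replicate 3 (0.0983 to 0.155) and on the 2 groups alone (0.149). Fibroblast markers summed to 11357.4 to 15214.5 CPM in lung iECs and 5881 to 7089.3 in lung ECs. Without Col1a1 and Col1a2, which made most of the sums, they gave 1433.8 to 1993.9 and 1357.7 to 1639.9, a sum computed after these values were seen. Of the 10 single markers 5 were higher and 3, Dcn, Lum and Thy1, lower in lung iECs. In the heart the sums were lower in iECs, at 18917.3 to 20614 CPM against 20739.3 to 21740.2 in ECs. Without Col1a1 and Col1a2 the heart sums were 4132.9 to 4749 in iECs and 7568.7 to 8043 in ECs. The part of fibroblast markers in the T-box levels was not tested.

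Of 10 other listed family symbols, 9 were in the table and 3 passed the filter. Mga, a large T-box protein that also binds Max, had mean CPM of 64.3 to 90.2 over the groups and was called in none of the 12 comparisons. Tbx6, a factor of the paraxial mesoderm, had 0.171 to 0.591 CPM. These levels lay near the filter on low counts, which heart iECs, its highest group, helped it to pass. Its higher level in heart iECs (0.591 CPM, 41 counts over 3 libraries) than in heart ECs (0.174 CPM, 10 counts) is therefore a description.

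Genes that work with T-box factors were taken from lists chosen with earlier results of these data known, so their counts are descriptions. Between lung and heart, 48.5% of all genes tested were called in fibroblasts, 37.7% in iECs and 47.9% in ECs, with medians of 0.01, -0.02 and 0.02. Among 9 tested cardiac partner factors, 4 were lower and 1 higher in lung than heart fibroblasts, 3 lower and 1 higher in iECs, and 5 lower and 1 higher in ECs, with median log2 differences of -0.25, -0.17 and -0.51. The shares called, 5, 4 and 6 of 9, are not far from those of all genes. Gata4, the zinc finger partner of Tbx5 and Tbx20, had 120.6, 156.2 and 72.5 CPM in heart fibroblasts, iECs and ECs and 9.1, 7.95 and 7.56 in those of the lung. Its lung minus heart differences were -3.72 ± 0.163, -4.3 ± 0.166 and -3.25 ± 0.161 (adjusted p = 6.51e-12, 2.05e-12 and 2.12e-11). Hand2, a basic helix-loop-helix factor of the heart, differed by -3.84 ± 0.103, -4.27 ± 0.11 and -3.89 ± 0.0972 (3.35e-15, 5.53e-15 and 1.23e-15). Nkx2-5 did not pass the filter, with at most 25 counts over the 3 libraries of any group.

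Of 14 tested genes of the lung mesenchyme pathway, 10 were higher and 2 lower in lung fibroblasts, 8 higher and 3 lower in lung iECs, and 11 higher and 2 lower in lung ECs, each against the heart (medians 1.65, 1.4 and 1.59). Fgf10, the growth factor of lung budding downstream of Tbx4 and Tbx5, averaged 0.146 CPM in heart fibroblasts and 21.2 in the lung ones (log2 7.12 ± 0.418, adjusted p = 1.46e-10). Within the lung it was lower in iECs than in fibroblasts (1.51 CPM, -3.81 ± 0.301, 6.32e-09) and lower in ECs (2.68 CPM, -2.98 ± 0.283, 5.24e-08). Tbx4 and Tbx5 were also lower than in lung fibroblasts in both. Between lung iECs and ECs, however, they were higher in iECs (51.2 against 20.3 and 12.4 against 5.8 CPM), where Fgf10 had the lower mean. A link of Fgf10 to these levels was not tested. Hoxa5, a homeobox gene of lung mesenchyme, was higher in the lung by 6.94 ± 0.278 in fibroblasts, 6.2 ± 0.27 in iECs and 5.11 ± 0.258 in ECs. Tcf21, a mesenchymal factor of both organs, went the other way, by -4.19 ± 0.147, -3.34 ± 0.149 and -4.8 ± 0.168.

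Among 16 tested genes known as T-box targets, 5 were higher and 8 lower in lung than heart fibroblasts, 6 higher and 6 lower in iECs, and 6 higher and 4 lower in ECs (medians -0.78, -0.08 and 0.33). Smad6, an inhibitor of BMP signalling, was lower in the lung by -2.75 ± 0.133 in fibroblasts, -3.34 ± 0.133 in iECs and -2.85 ± 0.132 in ECs. Against fibroblasts, 13 of the 16 were higher and 1 lower in heart ECs (median 1.81), and 10 higher and 3 lower in lung ECs (median 1.9). Of all genes tested, 47.4% were called in heart ECs (24.2% higher, 23.3% lower) and 58.1% in lung ECs (29.3% higher, 28.7% lower), with medians of 0. The 16 include Nppb, at 0.62 and 0.898 CPM in heart and lung ECs and at most 0.171 in the other groups. A gene that, like Tbx1, passed the filter through the ECs had to differ there, so these counts are descriptions only. Flt4, the lymphatic receptor downstream of Tbx1, had 178.1 CPM in heart ECs and 291.1 in lung ECs, against 65.7 and 97.5 in the iECs and 54.4 and 22.1 in the fibroblasts of these organs. Flt4 was higher in lung iECs than lung fibroblasts (log2 2.14 ± 0.112, adjusted p = 2.3e-11), where Tbx1 had 0.267 and 0.401 CPM. Gja5, a connexin gene that Tbx5 activates and Tbx2 and Tbx3 repress, had 374.5 CPM in heart iECs and 103.1 in lung iECs, and at most 5.61 in the other groups. It was higher in iECs than in fibroblasts by 9.9 ± 0.302 in the heart and 7.79 ± 0.289 in the lung (adjusted p = 2.35e-13 and 3.14e-12).

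BMP signals act upstream of Tbx2 and Tbx3 in the heart. Of 17 tested BMP pathway genes, 10 were lower and 3 higher in lung than heart fibroblasts, 10 lower and 4 higher in iECs, and 8 lower and 4 higher in ECs (medians -0.81, -0.63 and -0.57). The largest was Grem1, a secreted BMP antagonist, which was higher in the lung by 7.93 ± 0.49 in fibroblasts, 6.38 ± 0.442 in iECs and 4.55 ± 0.377 in ECs. Bmp6, a ligand, averaged 19.8 CPM in fibroblasts of the lung and 165.6 in those of the heart (-3.07 ± 0.144, adjusted p = 1.1e-11). Of 10 repressor partners, 2 were higher and 3 lower in lung than heart fibroblasts, 0 and 3 in iECs, and 5 and 2 in ECs. In fibroblasts and iECs these shares are near those of all genes called. Tle1, a Groucho-type co-repressor, was higher in lung than heart fibroblasts by 1.6 ± 0.0715 (3.98e-12).

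The genes whose pattern over the 18 libraries was most like each T-box gene were ranked by Pearson's r of log2 CPM among 11557 genes. Libraries of a group share their source, so r mostly follows the 6 group means. Tbx20 was nearest to Rapgef3 (0.99), Col4a2 (0.981) and Fam160a1 (0.98), and Tbx18 to Gpc6 (0.979), Naalad2 (0.969) and Cd99l2 (0.968). Tbx4 was nearest to Prdm6 (0.985), Hoxb4 (0.976) and Hoxb6 (0.975), and Tbx5 to Hoxa2 (0.935), Adcy2 (0.934) and B3galnt1 (0.932). B3galnt1 was also among the 3 nearest to Tbx2 (0.918), after Plppr2 (0.964) and Gng7 (0.959). Slc25a13 (0.961) and Cdh11 (0.958) were among the 3 nearest to Tbx3. Tbx15 was nearest to Mfap5 (0.929), Mettl9 (0.92) and Psip1 (0.917), and Tbx1 to Clu (0.97), Crisp1 (0.953) and Cldn3 (0.95). Within the family, Tbx4 and Tbx20 had the strongest opposite relation (-0.96), and Tbx18 with Tbx20 gave 0.87.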

How the data were processed

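RNA-seq of 18 mouse libraries (6 groups of 3) was analysed from a table of whole-number estimated counts per gene that the authors deposited. Salmon, DESeq2 and the build mm10 are named in the submitters' processing notes, without versions. How transcripts were summed to genes and how strand was handled is not given in the sources used here. Symbols were matched for 35422 of 35727 gene IDs, and the other IDs held 0.0532% of counts. Library totals, of 17747632 to 23775372 counts, make 1 count worth at most 0.0563 CPM.

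Counts were fitted in R 4.3.3 with edgeR 4.0.16: filterByExpr by group (14864 genes, 99.97% of counts), TMM scaling, and a robust quasi-likelihood fit with 1 coefficient per group over all 18 libraries (12 residual degrees of freedom). The 12 contrasts were each adjusted by Benjamini-Hochberg over all genes tested, with a threshold of 0.05. The SE is the log2 difference over the root of F. CPM use TMM-scaled totals. Lengths and positions are from GENCODE M21 (GRCm38). On simulated counts for lung against heart fibroblasts, over 14509 genes, 74 of 98 genes changed by 1 log2 unit and 85 of 97 changed by 2 were recovered, and 9 unchanged genes were called.

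The members and lists were chosen with earlier results of these data known. Every T-box member was named, and other family genes if they reached 1 CPM in any group. From each list, up to 4 called genes of the largest change could be named, and 1 of the opposite direction, if the higher group reached 5 CPM, and likeness gave the 3 nearest genes with at least 5 CPM in the highest group. A gene among those nearest to Tbx3 is not reported here. Nkx2-5, Tbx6, Eomes and the Flt4 levels in iECs and fibroblasts fall outside this rule and were chosen after their values were seen. Alternatives were RLE scaling, DESeq2 1.42.0, 2 other filters, 2 other prior counts, a replicate block, only the groups compared, each library left out, exon union lengths and Spearman's rho. Figures were drawn with matplotlib 3.10.9.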

Additional observations from a re-analysis of the deposited data

Results flagged for a closer look

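The lung minus heart difference of 6 T-box genes changed with the cell type by a test of the difference itself (edgeR's quasi-likelihood fit, 3 libraries a group, adjusted over all genes tested). From fibroblasts to iECs the log2 difference changed by -1.92 for Tbx4, -0.92 for Tbx15, -0.87 for Tbx2 and 1.45 for Tbx20. From fibroblasts to ECs it changed by -2.93 for Tbx3, -1.99 for Tbx5, -1.03 for Tbx2, -0.99 for Tbx15 and 1.48 for Tbx20. The difference in iECs minus that in ECs was 2.55 for Tbx3, 1.3 for Tbx5 and -1.1 for Tbx4. Of all genes tested, 25.2%, 34.5% and 26.0% were called in these tests, in the order given. The share called in any of them is not given here. Some fits without a library lost the call of Tbx2 from fibroblasts to iECs, and those of Tbx4 and Tbx5 between iECs and ECs. For Tbx20 the positive values stand beside lung minus heart differences of -8.63, -7.18 and -7.14 in fibroblasts, iECs and ECs, and for Tbx3 the values stand beside 4.21, 3.83 and 1.28. Groups of 3 were not tested for outlying libraries.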

How the results depend on the processing

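Of 2479 recomputed log2 differences of the 8 genes, 2399 kept their direction and side of the threshold, 50 lost a call, 7 gained one and 23 changed sign. No call changed sign: 1685 of 1735 values of called differences stayed called and 50 did not. The count of T-box genes called moved by over 1.5 times for the organ difference in iECs against ECs (3 in all libraries, 1 to 4 with a library left out) and for lung iECs against lung fibroblasts (4, and 2 to 5). The other 10 counts stayed within 1.5 times. The sign changes were in differences that were not called. With a prior count of 5, the organ difference of Tbx1 in iECs minus fibroblasts was -0.03. With a library left out, that value ran from -0.67 to 0.85, and in iECs minus ECs the range was -1.05 to 0.47 for Tbx1, -0.03 to 0.42 for Tbx2, -0.03 to 0.15 for Tbx15 and -0.18 to 0.14 for Tbx20. In ECs minus fibroblasts it was -0.09 to 0.84 for Tbx1. Tbx5 ran from -0.17 to 0.08 in heart iECs against fibroblasts, -0.51 to 0.04 against heart ECs, and -0.1 to 0.46 in heart ECs against fibroblasts. Tbx15 ran from -0.15 to 0.04 in lung against heart iECs, and against lung fibroblasts Tbx18 ran from -0.14 to 0.03 in lung iECs and Tbx3 from -0.26 to 0.02 in lung ECs. The causes were not tested. The filter of at least 5 CPM in 3 libraries left no value for Tbx15. With exon union lengths, Tbx3 and Tbx18 changed places in lung fibroblasts, and with Spearman's rho the 3 nearest genes changed for each member, with Prdm6 staying among those of Tbx4.

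Same-numbered libraries did not deviate together: 1 of 45 same-number pairs had r over 0.1 (-0.398 to 0.117), and 4 of 18 libraries correlated best with their own number, so the numbers were not taken as pairing. With the replicate block, the Tbx15 difference of heart iECs from heart ECs was not called (0.46, adjusted p = 0.0589), and no other call of the 8 genes changed. Low counts limit Tbx1 outside the ECs.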

Other observations

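Eomes, a T-box factor of early mesoderm and of lymphocytes, fell just under the level of 1 CPM set for naming other family members and was chosen after its values were seen. It had 0.98 CPM in lung ECs (67 counts over 3 libraries) and 0.514 in lung iECs (34 counts), against 0.078 in lung fibroblasts (5 counts). The heart groups had 0.0953, 0.0576 and 0.178 CPM in fibroblasts, iECs and ECs (5, 4 and 11 counts). The 12 macrophage markers were at 8154.9 to 10401.1 CPM in lung ECs, 2640.1 to 4137.2 in lung iECs and 1103.5 to 1476.9 in lung fibroblasts, and at most 428.4 in the heart libraries. Their part in the level of Eomes was not tested.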
